A study of Rattus norvegicus with 12 samples.

Results

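The dorsal root ganglion (DRG) holds the cell bodies of the sensory neurons whose axons run outward in the peripheral nerve and inward to the dorsal horn of the spinal cord. In this rat series it was measured on 4 of 12 one-colour oligonucleotide arrays, those whose titles name the left or the right DRG, beside 4 arrays of the sciatic nerve and 4 of the dorsal spinal cord. Each array held total RNA pooled from 3 female rats that were 8 weeks old. For DRG, replicates 1 and 2 came from athymic nude rats (Hsd:RH-Foxn1rnu), which lack the thymus and the T cells that mature there, at day 7, and replicates 3 and 4 from Sprague-Dawley rats at day 12. Replicates 1 and 3 were left ganglia, on the side of a sciatic nerve injected with 50 µg of the myelin basic protein peptide MBP84-104 in 5 µL of buffered saline, and replicates 2 and 4 were right ganglia, the control side. The nerve arrays follow the same order. For the cord, replicates 1 and 3 were the left dorsal quadrant of the lumbar enlargement, and replicates 2 and 4 were the left dorsal quadrant above it, which served as the control. No array came from an untouched rat. Rat type also carries the day and, for DRG and cord, the slide, since slide 1 held all nude arrays and the Sprague-Dawley nerve arrays and slide 2 the Sprague-Dawley DRG and cord arrays, so these cannot be told apart.

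Sensory neurons of the ganglion detect heat, cold, touch, itch and tissue damage through ion channels in their peripheral endings, carry the signal with voltage-gated sodium channels, and release glutamate and neuropeptides at their central endings. Satellite glial cells wrap each cell body, and myelinating and non-myelinating Schwann cells accompany the axons. A ganglion also holds fibroblasts, vessels, resident macrophages and blood, all of which contribute RNA to a whole-tissue sample. The transcripts that distinguish the cell bodies are mostly channels, receptors, peptides and the transcription factors that fix sensory identity. The nerve contains the axons of the same neurons without the cell bodies, and the dorsal cord contains their central endings among the cell bodies of other neurons.

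The values below are the deposited log2 intensities, quantile normalized between arrays, and they can be compared between arrays for one gene but not between genes, because brightness also depends on the probe. Between 57.6% and 73.6% of the 30367 probes were well above background on the 4 DRG arrays, the lowest on replicate 2 and the highest on replicate 3. Over the 20204 probes tested, the DRG arrays correlated with each other with Pearson's r between 0.983 and 0.992, a description across probes, and the median r was 0.912 with the nerve arrays and 0.893 with the cord arrays. The median standard deviation of a gene was 0.21 log2 units over the 4 DRG arrays, 0.30 over the nerve arrays and 0.16 over the cord arrays. Nothing in the labels says that left and right ganglia came from separate animals, so p-values measure the spread between these arrays, which may be partly technical.

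The ganglion identity of the 4 arrays was checked with 3 defining genes of nociceptors. Scn10a, a voltage-gated sodium channel of pain-sensing neurons, read 10.62, 10.72, 10.85 and 10.87 on DRG replicates 1 to 4. On the nerve arrays it read 2.33, 1.24, 1.25 and 1.27, and on the cord arrays 1.90, 2.11, 2.69 and 2.54, none of them well above background. All DRG arrays thus lay far above all others, by at least 240.1-fold against nerve and at least 302-fold against cord (limma adjusted p = 1.37e-09 and 2.70e-09). Here and below, at least marks a gene well above background on no array of the dimmer tissue. On each such array its own value was used or, where higher, the lowest value of a probe well above background. Where its own values were all the higher ones, the figure equals the plain fold difference. Trpv1, the receptor for capsaicin and noxious heat, read 7.08, 6.94, 7.46 and 7.40 in DRG, 3.73, 4.56, 3.60 and 3.51 in nerve and 2.73, 2.84, 2.66 and 2.0 in cord. P2rx3, an ATP-gated channel of nociceptors, read 11.03, 11.03, 11.44 and 11.32 in DRG, 6.09, 6.21, 6.73 and 5.37 in nerve and 5.14, 5.07, 4.81 and 5.14 in cord. For each of the 3 genes the lowest DRG array was above the highest of the 8 other arrays.

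Scn10a and another sodium channel of nociceptors, Scn11a, were the 2 genes whose lesser difference against the tissues was largest, and they lie near each other on chromosome 8 of the rat. The sequences upstream of these 2 genes are shown because their transcripts set the ganglion apart most by that measure. These are the 250 bases before each gene's annotated start, from RefSeq on the build GRCr8, minus strand, at chr8:128340299-128340548 for Scn10a and chr8:128444719-128444968 for Scn11a, written 5′ to 3′. Capitals mark a match to ATTAAT, one of 3 motifs searched on both strands with TAATTA and TATAAA.
Scn10a: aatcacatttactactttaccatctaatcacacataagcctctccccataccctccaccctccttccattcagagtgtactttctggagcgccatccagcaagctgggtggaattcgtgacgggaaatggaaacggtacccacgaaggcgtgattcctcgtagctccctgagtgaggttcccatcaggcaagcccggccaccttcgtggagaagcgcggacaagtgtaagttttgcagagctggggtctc
Scn11a: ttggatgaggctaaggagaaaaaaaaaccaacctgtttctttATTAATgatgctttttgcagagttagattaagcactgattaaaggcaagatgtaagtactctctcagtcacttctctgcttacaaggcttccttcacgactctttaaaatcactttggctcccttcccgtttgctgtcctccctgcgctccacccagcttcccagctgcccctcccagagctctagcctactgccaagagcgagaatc
The Scn10a window, at 53.2% GC, held none of the 3 motifs, and the Scn11a window, at 46.4% GC, held ATTAAT 208 bases before the start. ATTAAT occurred in 7 of the 181 windows found for genes higher in DRG than in both tissues, or 3.87%, beside 2.38% of the 8917 windows of tested genes and 4.91% of all 27457 windows of that length. TAATTA occurred in 5 of the 181, or 2.76%, beside 2.28% of tested genes and 4.94% of all windows. TATAAA occurred in 25 of the 181, or 13.8%, and in 13.3% of the 128 windows of genes lower in both, beside 7.87% of tested genes and 13.1% of all windows. A match is a description of letters only.

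The brightest probes of the ganglion were mostly those of every tissue. Of the 100 genes with the highest mean over the DRG arrays, 85 were among the highest 100 on each of the 4 arrays, 80 were also among the highest 100 in nerve and 77 in cord. Ribosomal proteins and elongation factors made up 47 of the 100. The 10 brightest, in no order because brightness depends on the probe, were the haemoglobin genes Hba-a1, Hbb and Hbb-b1, the ferritin heavy chain Fth1, the ribosomal protein genes Rpl41, Rps29, Rpl37a and Rpl38, the myelin basic protein gene Mbp, and the probe annotated to Ceacam9. Mbp read 17.27, 17.11, 17.46 and 17.46 in DRG, with means of 17.40 in nerve and 17.73 in cord, and neither difference passed the test. Another tested probe of Mbp differed by 0.38 from nerve and by -1.29 from cord on the log2 scale. None of the 100 was called higher in DRG than in both other tissues.

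To find what set the ganglion apart, 10925 named genes were compared with limma between DRG and nerve and between DRG and cord, and a gene was called at an adjusted p under 0.05 and a change of at least 2-fold. Against nerve, 1125 genes were higher in DRG (10.3% of those tested) and 1005 were lower (9.20%). Against cord, 1475 were higher (13.5%) and 1939 lower (17.7%). In both comparisons at once, 235 genes were higher (2.15%) and 157 lower (1.44%), and these numbers describe whole tissue, where fewer cells of a type and less RNA per cell cannot be told apart. Both comparisons use the same DRG arrays. A further 406 genes were higher than nerve and lower than cord, and 330 were lower than nerve and higher than cord. Every DRG array lay above all 8 others for 599 genes (5.48%) and below all 8 for 611 (5.59%), and 214 of the 235 and 116 of the 157 were among them. Of the 235, a change of 4-fold or more in both comparisons was found for 89 and of 16-fold or more for 26, 46 were well above background on no nerve array, 27 on no cord array and 14 on neither. With left and right arrays averaged, 224 of the 235 and 145 of the 157 were still called. With slide as a block 206 and 125 were, and within slide 1 alone 154 and 88, and within slide 2 alone 1501 genes were higher and 1825 lower than cord. The balance of directions depended on the scaling, with 273 higher and 86 lower in both when scanner signals were scaled to the 75th percentile of each array, and 133 and 20 after normexp background correction.

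**Figure D1:**
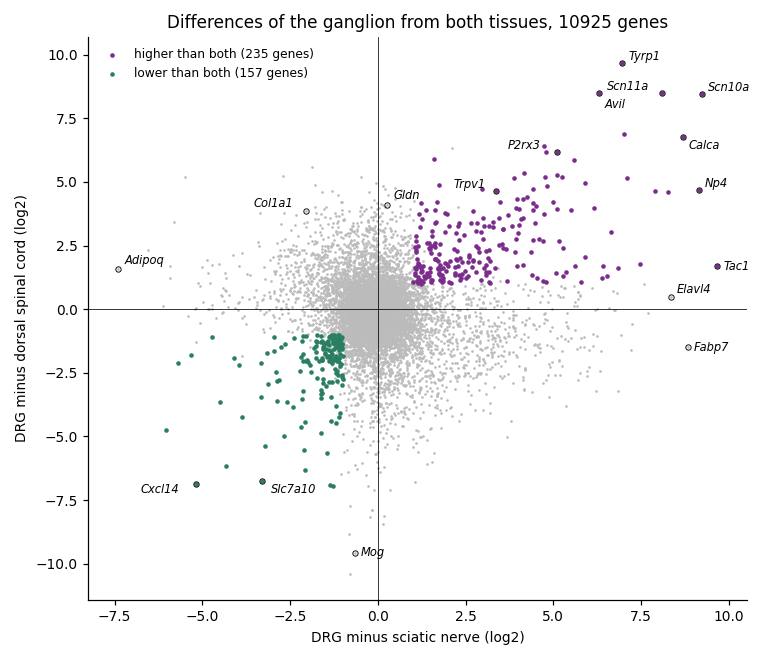
Each point is 1 of the 10925 genes tested, with the log2 difference between DRG and sciatic nerve on the x axis and between DRG and dorsal spinal cord on the y axis, both from means of 4 arrays. The 235 genes called higher in both lie at upper right, with P2rx3 at 5.10 and 6.16, and the 157 called lower in both at lower left. Grey genes were not called in the same direction in both.

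Ion channels led the genes that were higher in the ganglion. Of 19 tested genes in a list of sensory ion channels, 15 were higher than nerve and none lower, 11 were higher than cord and 2 lower, and 10 were higher than both. Their median log2 difference was 3.17 against nerve and 1.27 against cord, beside -0.08 for each comparison over all genes tested. Over all genes tested, 10.3% were higher and 9.20% lower than nerve, 13.5% higher and 17.7% lower than cord, and 2.15% higher than both. Genes well above background only in DRG, such as Scn10a and Trpa1, could be tested through their DRG level alone. Counts of higher genes in this and the later neuronal lists are therefore not independent support. Scn11a read 11.02, 11.18, 10.91 and 11.13 in DRG against 2.63, 2.44, 4.21 and 2.58 in nerve and 1.65, 3.64, 2.75 and 2.21 in cord. Its 4 DRG values lay close together and did not overlap the other tissues. Scn9a, a sodium channel whose loss abolishes pain in humans, read 9.31, 9.62, 9.44 and 9.20 in DRG, and was 27.4-fold above nerve and 36.8-fold above cord (adjusted p = 3.79e-07 and 1.57e-07).

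Thermal and chemical sensors followed the sodium channels. The cold and menthol receptor Trpm8 read 7.93, 8.58, 8.23 and 8.03 in DRG and 2.88, 2.58, 5.24 and 2.85 in nerve, where only replicate 3 was well above background. Against cord, where no array was, it was at least 54.3-fold higher (adjusted p = 3.36e-06). Trpv1 was 10.3-fold above nerve (log2 difference 3.37, SE 0.25, adjusted p = 1.49e-06) and at least 25.3-fold above cord. P2rx3 was 34.3-fold above nerve and 71.5-fold above cord. The irritant receptor Trpa1 was dimmer, at 4.60, 4.75, 4.34 and 4.94 in DRG, and was well above background on no other array (at least 3.49-fold above nerve and 5.26-fold above cord). With normexp correction its log2 differences fell to 0.50 from nerve and 0.55 from cord, and both calls were lost. For each of these genes all DRG arrays lay above all 8 others.

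**Figure D2:**
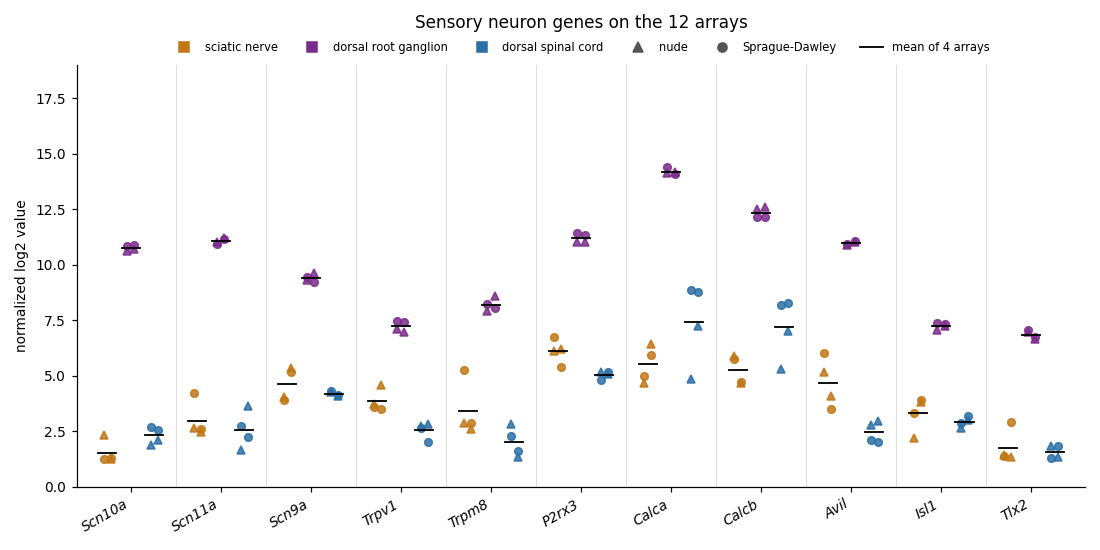
Normalized log2 value of 11 sensory neuron genes on each of the 12 arrays, by tissue, with triangles for nude and circles for Sprague-Dawley rats and a bar at the mean of 4 arrays. Levels can be compared within a gene only. The 4 DRG arrays of each gene lie above all 8 others, with Scn10a between 10.62 and 10.87 in DRG.

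Neuropeptide genes of the list were called in both directions. Of 18 tested peptide genes, 11 were higher than nerve and 2 lower, while 5 were higher than cord and 7 lower. Among all genes tested, 10.3% and 9.20% were so called against nerve and 13.5% and 17.7% against cord. The 4 that were higher than both were Calca, Calcb, Tac1 and Nmb. Calca, which encodes calcitonin gene-related peptide, read 14.13, 14.17, 14.38 and 14.07 in DRG, 4.68, 6.44, 4.96 and 5.93 in nerve and 4.87, 7.23, 8.84 and 8.76 in cord. The nude lumbar cord array was far lower than the others, and no cord array came near the DRG range. Another probe of Calca, too dim to be tested, differed by 0.12 from nerve and 0.11 from cord. The difference of Calca from cord was 6.76 (SE 0.69, adjusted p = 1.17e-05), and within slide 2 alone it was 5.42. Calcb, the other calcitonin gene-related peptide gene, was 136-fold above nerve and 35.5-fold above cord.

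Tac1, the substance P precursor gene, had the largest difference from nerve of any peptide, reading 13.70, 13.58, 13.54 and 13.28 in DRG against 1.33, 4.40, 4.49 and 5.20 in nerve. Against cord, where it read 12.18, 11.70, 12.29 and 11.11, the difference of 1.71 (SE 0.66) barely passed the test (adjusted p = 0.0418). Omitting any one of 8 arrays, namely the 4 DRG arrays, cord replicates 2, 3 and 4 or nerve replicate 3, ended that call with an adjusted p between 0.0503 and 0.124. Nmb, which encodes neuromedin B, an itch-related peptide of sensory neurons, was 15.4-fold above nerve and 15.6-fold above cord. Sst, the somatostatin gene, stood between the tissues, at 9.10 ± 0.73 (SD, n = 4) in DRG, 2.26 in nerve and 12.31 in cord. Penk, the enkephalin precursor gene, and Cck, the cholecystokinin gene, were lower in DRG than in both tissues, by 124-fold and 18.6-fold against cord, and both lost their call against nerve within slide 1 alone and with slide as a block. The call of Penk against nerve was also lost without DRG replicate 2 or 4 or nerve replicate 1 (adjusted p from 0.0625 to 0.0707), and Cck fell below 2-fold without nerve replicate 3 (adjusted p = 0.00757).

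Of 16 tested transcription factors of sensory identity, 6 were higher than nerve and 1 lower, and 9 were higher than cord and 1 lower. For all genes tested the shares were 10.3% and 9.20% against nerve and 13.5% and 17.7% against cord. The 5 higher than both were Tlx2, Isl1, Isl2, Pou4f2 and Pou4f3, beside 2.15% of all genes tested. Both calls of Pou4f3 were lost with normexp correction. Tlx2, a homeobox factor of neural crest derivatives, read 6.96, 6.66, 7.03 and 6.75 in DRG and was well above background on no other array (at least 15.9-fold above nerve and 24-fold above cord). Isl1, a homeobox factor needed for nociceptor development, read 7.06, 7.23, 7.39 and 7.34 in DRG, 2.17, 3.81, 3.33 and 3.90 in nerve and 2.62, 2.98, 2.85 and 3.18 in cord. Pou4f2, a POU-domain factor, was at least 12.9-fold above nerve and 6.46-fold above cord (adjusted p = 1.49e-07). Drgx, a homeobox gene of both the ganglion and its targets in the dorsal horn, was at least 32.2-fold above nerve. Against cord its difference was 0.85 (SE 0.23, adjusted p = 0.00775), under the 2-fold limit, and the DRG values of 8.07 to 8.43 lay above the cord values of 6.92 to 7.81. Hmx1, another factor of the list, was called in neither comparison, with means of 16.29 in DRG, 16.06 in nerve and 16.38 in cord. Its probe was among the 100 brightest in each tissue, and whether it reads Hmx1 alone was not tested.

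Receptors for neurotrophic factors, which keep sensory neurons alive and set their subtype, were mostly higher in the ganglion. Of 12 tested, 7 were higher than nerve and none lower, and 9 were higher than cord and 1 lower. Shares of all genes tested were 10.3% and 9.20% against nerve and 13.5% and 17.7% against cord. Higher than both were 5, among them Gfra3, Ret, Ngfr and Lifr, beside 2.15% of all genes tested. Gfra3, the artemin co-receptor, read 6.78, 6.85, 6.89 and 6.55 in DRG and was 18-fold above nerve and at least 22.7-fold above cord. Ret, the signalling partner of the Gfra receptors, was 8.82-fold and 3.99-fold above nerve and cord, and within slide 1 alone its call against cord was lost. Ngfr, the low-affinity neurotrophin receptor that Schwann cells share, was 3.32-fold above nerve and 29.1-fold above cord, the call against nerve being lost within slide 1 alone. Lifr, a receptor of leukaemia inhibitory factor, was 4.02-fold and 3.28-fold higher, both calls being lost in nude arrays alone (adjusted p = 0.0505 and 0.0605) and that against cord with normexp correction.

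Among G protein-coupled receptors of sensory neurons, 3 of 16 tested genes were higher than both tissues, namely Gpr149, Mrgprx3 and F2rl2. Gpr149, an orphan receptor, read 8.58, 8.83, 8.77 and 8.48 in DRG, 1.48, 2.08, 1.45 and 2.24 in nerve and 6.91, 7.08, 7.02 and 7.17 in cord. Mrgprx3, of the Mas-related family that includes itch receptors, was 4.7-fold above nerve and 7.93-fold above cord. F2rl2, a protease-activated receptor, was 5.22-fold and 3.6-fold higher, and both calls were lost with normexp background correction. Counted over the list, 5 genes were higher than nerve and none lower, and 4 were higher than cord and 6 lower. Beside these stand 10.3% and 9.20% of all genes tested against nerve, and 13.5% and 17.7% against cord.

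Of 20 tested general neuronal genes, 17 were higher than nerve and none lower, whereas 3 were higher than cord and 8 lower. Against nerve 10.3% and 9.20% of all genes tested were so called, and against cord 13.5% and 17.7%. The neurofilament genes Nefl, Nefm and Nefh were 53.9-fold, 54.2-fold and 190.3-fold above nerve, and their log2 differences from cord were 0.52, 0.56 and 0.98, none called. Elavl4, a neuronal RNA-binding protein gene, read 10.34, 10.57, 10.58 and 10.39 in DRG and 9.96, 9.80, 10.17 and 10.08 in cord, and was well above background on no nerve array (at least 170.5-fold). The 3 genes above cord as well were Stmn2, a regulator of axonal microtubules, Sncg, a synuclein of peripheral neurons, and Map1b, a microtubule-associated protein. Sncg was 2.81-fold above nerve and 5.12-fold above cord, Stmn2 23.2-fold and 2.37-fold, its call against cord being lost within slide 1 alone (adjusted p = 0.0776) and in Sprague-Dawley arrays alone (adjusted p = 0.0624). Map1b was 2.07-fold above cord, just past the limit, and fell below 2-fold without DRG replicate 2 or replicate 3 (adjusted p = 0.00956 and 0.00993).

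Of 12 tested markers of large myelinated sensory neurons, 7 were higher than nerve and none lower, 2 were higher than cord and 4 lower, and none was higher than both. All genes tested gave 10.3% and 9.20% against nerve and 13.5% and 17.7% against cord. The counts against cord cannot be set apart from those shares in so short a list. Pvalb, the calcium buffer of proprioceptors, read 11.85, 11.67, 12.08 and 11.94 in DRG, 7.60 to 8.80 over the nerve arrays and 12.31 to 12.45 over the cord arrays. Scn8a, the main sodium channel of nodes of Ranvier, was at least 13-fold above nerve and 2.74-fold below cord. Ntrk3, a neurotrophin receptor of proprioceptors, was 5.55-fold above nerve, while its other tested probe differed by 0.26 on the log2 scale.

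Genes of the inhibitory and excitatory neurons of the dorsal horn separated the ganglion from cord in the opposite direction. Of 14 tested central neuron genes, none was higher than cord and 9 were lower, with a median difference of -3.92. Of all genes tested, 13.5% were higher than cord and 17.7% lower. Gad2, a GABA-synthesizing enzyme, Lbx1, a dorsal horn transcription factor, and Glra3, a glycine receptor subunit, were well above background on no DRG array and on all 4 cord arrays. Cord exceeded DRG by at least 39.5-fold for Gad2, 9.01-fold for Lbx1 and 14.3-fold for Glra3. Against nerve, 6 of the 14 were higher in DRG and none was lower, beside 10.3% and 9.20% of all genes tested. Slc32a1, the vesicular transporter of inhibitory neurons, was 31.4-fold lower in DRG than in cord.

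In a list of 12 satellite glia genes, 2 were higher than nerve and 1 lower, and 1 was higher than cord and 8 lower. The shares over all genes tested were 10.3% and 9.20% against nerve and 13.5% and 17.7% against cord. Against nerve, a list this short cannot be set apart from those shares. Fabp7, a fatty acid binding protein of satellite glia and of immature astrocytes, read 11.51, 11.62, 11.55 and 11.26 in DRG, 1.40, 1.34, 3.65 and 4.25 in nerve and 12.49, 13.04, 12.69 and 13.61 in cord. It was higher than nerve (adjusted p = 1.72e-07), where 2 of 4 arrays were well above background. Its difference of -1.47 from cord lost its call without DRG replicate 3 or 4 or cord replicate 2 or 4 (adjusted p from 0.0557 to 0.0715), and also with 75th percentile scaling or averaged arrays. Cdh19, a cadherin of Schwann cell precursors, was 15.4-fold above cord and differed from nerve by 0.92 on the log2 scale. Gja1, the connexin of astrocytes and satellite glia, was below both tissues, by 2.78-fold and 8.1-fold, the first lost within slide 1 alone.

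Peripheral myelin genes did not separate the ganglion from nerve. None of the 15 tested was called in either direction, and their median difference was -0.05, while 9 were higher than cord and 4 lower. For all genes tested, 10.3% were higher and 9.20% lower than nerve, and 13.5% and 17.7% than cord. The Schwann cell transcription factor gene Egr2 read 7.94, 7.95, 8.52 and 8.50 in DRG, 7.77, 8.60, 8.04 and 8.59 in nerve and 5.08, 3.75, 5.41 and 2.98 in cord. Gldn, an organizer of the node of Ranvier, was 16.9-fold above cord, Dhh, a Schwann cell signal, 20.2-fold (its other tested probe differed by 1.29 on the log2 scale), and Pmp2, a peripheral myelin lipid-binding protein, 16.4-fold. In cord the 2 arrays of the lumbar enlargement read higher for Egr2, Gldn, Dhh and Pmp2 than the 2 above it, with Pmp2 at 11.21, 8.11, 11.63 and 8.67. The DRG arrays of the Sprague-Dawley rats read higher for Pmp2 than those of the nude rats, at 13.40, 13.33, 14.47 and 14.54.

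Central myelin and astrocyte genes were low in the ganglion. Of 11 central myelin genes, 10 were lower than cord and 2 were higher than nerve, and of 11 astrocyte genes all were lower than cord. In comparison, 17.7% of all genes tested were lower than cord and 10.3% higher than nerve. Mog, a surface protein of oligodendrocytes, read 1.37, 1.52, 3.94 and 1.72 in DRG, where 1 array was well above background, and 11.38, 11.99, 11.45 and 12.11 in cord. Mobp was 136-fold below cord and Slc1a2, the main glutamate transporter of astrocytes, 234-fold. Gfap, the astrocyte intermediate filament gene, was 120.3-fold below cord and 2.57-fold below nerve, the second lost in Sprague-Dawley arrays alone. Gjb6, a connexin, and Aldoc, an aldolase, were also below cord but were at least 24.7-fold and 6.33-fold above nerve.

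**Figure D3:**
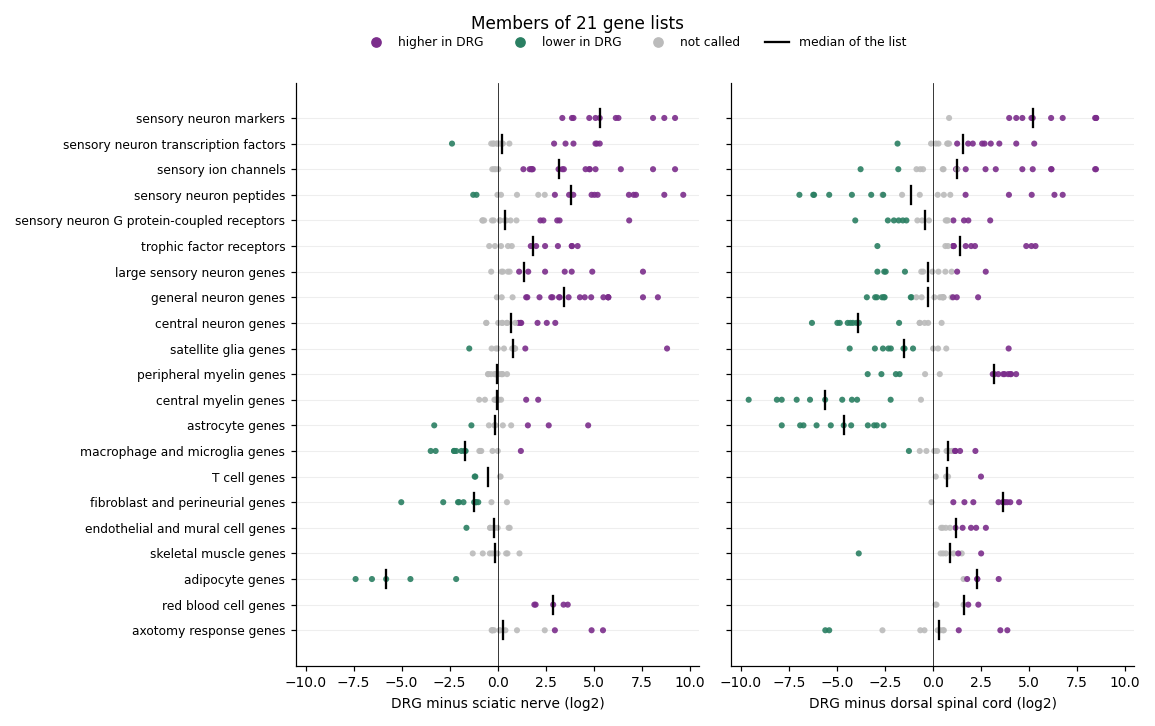
Log2 difference of DRG from sciatic nerve (left) and from dorsal spinal cord (right) for the tested members of 21 gene lists, 1 point a gene, coloured by its call, with a bar at the list's median. Sensory neuron markers lie to the right in both panels, with medians of 5.32 and 5.20, peripheral myelin genes near 0 against nerve, and central myelin and astrocyte genes far to the left against cord.

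Most tested connective tissue, fat and macrophage genes were lower in the ganglion than in the nerve. Of 11 fibroblast and perineurial genes, 9 were lower than nerve and none higher, and 10 were higher than cord. The collagen gene Col1a1 read 13.53, 13.69, 14.30 and 13.94 in DRG, 15.73 to 16.16 over the nerve arrays and 9.79 to 10.24 over the cord arrays. Postn, a matrix protein, was 32.4-fold below nerve, and its call as higher than cord was lost in 11 of the alternative fits. All 5 adipocyte genes tested were lower than nerve and 4 were higher than cord, beside 9.20% and 13.5% of all genes tested. Fabp4 read 5.55, 4.76, 5.32 and 5.21 in DRG and 10.25, 11.93, 10.24 and 11.64 in nerve, and was well above background on no cord array. With normexp correction its difference from cord fell to 0.70 log2 units and lost the call. Retn, another of the 4, lost its call against cord in 11 of the alternative fits. Of 14 macrophage and microglia genes, 8 were lower than nerve and 1 higher, and 4 were higher than cord and 1 lower. The scavenger receptor gene Cd163 was 9.37-fold below nerve and 2.27-fold above cord, and Cd14, a lipopolysaccharide co-receptor, was 11.2-fold below nerve. The 1 gene higher than nerve was Cx3cr1, the fractalkine receptor, at a difference of 1.21 (adjusted p = 0.0469), and the omission of any array except nerve replicate 4 ended that call, with an adjusted p between 0.0525 and 0.137.

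Few vessel and muscle genes were called against nerve, where 10.3% of all genes tested were higher and 9.20% lower. Lists this short cannot be set apart from those shares. Of 9 endothelial and mural genes, 1 was lower than nerve and none higher, and 5 were higher than cord, among them Emcn at 6.78-fold. None of 8 skeletal muscle genes was called against nerve. Of 9 T cell genes, 4 could be tested and 3 were well above background on no DRG array, and 2 of the 4, Cd3g and Cd4, were lower than nerve, with both calls lost within slide 1 alone, with 75th percentile scaling and with normexp correction. Cd3d, a T cell receptor subunit, read 7.62, 7.97, 7.59 and 8.25 in DRG, with the nude arrays first, beside 6.71 to 8.18 over nerve and 6.98 to 7.26 over cord, and the nude and Sprague-Dawley DRG arrays overlapped.

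Several of the 20 genes with the largest differences from both tissues belonged to none of the neuronal lists. Tyrp1, an enzyme of melanin synthesis, read 10.96, 11.01, 11.20 and 11.33 in DRG and was well above background on no cord array (at least 465-fold). In nerve it read 6.43, 1.43, 7.26 and 1.54, so that both injected left nerves were far above both right nerves, and its call against nerve was lost within slide 1 alone. The melanocyte genes Mlana and Tyr were well above background on no DRG array. Ppp1r1c, an inhibitor of a protein phosphatase, read 11.33, 11.39, 11.19 and 11.35 in DRG and was 129-fold above nerve and 117-fold above cord. Tspan8, a tetraspanin, read 11.64, 11.81, 11.35 and 11.59 in DRG, 7.32, 7.17, 7.29 and 6.98 in nerve and 7.03, 7.25, 6.62 and 6.66 in cord. A4galt, which makes the glycolipid globotriaosylceramide, was 26.8-fold above nerve and at least 85-fold above cord.

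A further group read far lower outside the ganglion. Avil, an actin-binding protein of sensory neurons, had a mean of 10.98 ± 0.08 (SD, n = 4) in DRG, read 5.18, 4.07, 6.00 and 3.49 in nerve, and was at least 358-fold above cord. Slc51a, a subunit of a steroid and bile acid transporter, was at least 19.3-fold above nerve and 29.2-fold above cord. Ppef1, a calcium-binding phosphatase, read 6.01, 6.05, 6.08 and 6.44 in DRG and was well above background on none of the 8 others. Cst12, a cystatin, read 7.28, 7.45, 7.64 and 7.95 in DRG and was 48.5-fold above nerve, where 1 of 4 arrays was well above background. S100g, a vitamin D-dependent calcium-binding protein, read 8.64, 8.73, 7.63 and 7.88 in DRG, higher on both nude arrays than on both Sprague-Dawley arrays.

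Genes of neutrophil granules were among those that set the ganglion apart, and this list was drawn up after their values were seen. All 7 that could be tested, of 14 measured, were higher in DRG than in both tissues, beside 2.15% of all genes tested. Each of the 7 was well above background on all 4 DRG arrays, which by itself let it be tested. The count therefore describes genes chosen through their level in DRG and is not independent support. They were the defensin genes Np4, RatNP-3b, Defa5 and Defa11, the cathelicidin gene Camp, and S100a8 and S100a9, the subunits of calprotectin. Np4 read 12.43, 10.00, 10.81 and 9.79 in DRG, 7.62, 6.55, 4.47 and 5.64 in cord and well above background on no nerve array (at least 238-fold, adjusted p = 3.72e-07). DRG replicate 1, the left nude array, was the highest for all 7 genes. Without it, all 7 were still called higher than both, and within slide 1 alone 5 were, S100a8 and S100a9 losing the call against cord (adjusted p = 0.0795 and 0.0731). The defensin genes are close copies of each other, so their probes may read each other's transcripts.

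S100a8 read 11.57, 9.62, 10.16 and 10.23 in DRG, 6.41, 3.85, 7.42 and 3.88 in nerve and 7.45, 6.58, 4.49 and 6.18 in cord. Both injected left nerves read higher than both right nerves, and all 4 DRG arrays were above them. Camp was 34.2-fold above nerve and 15.3-fold above cord. Of the 7 members too dim to be tested, Ltf, Mmp8 and Elane were well above background on no DRG array, and the other 4 on some of them. Without the filter on dim probes, 9 of the 14 were called higher than both tissues. The summed log2 level of the 14 genes ran from 12.43 to 14.52 over the DRG arrays, from 6.61 to 8.96 over nerve and from 7.49 to 10.14 over cord. Whether marrow or blood left with the dissected ganglia contributed was not tested.

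All 5 red blood cell genes tested were higher in DRG than in nerve, and Ahsp and Slc4a1 were also higher than in cord. The globin result against cord depended on the probe. Other tested probes differed from cord by 0.98 for Hba-a1, 1.515 for Hbb and 0.42 for Hbb-b1 on the log2 scale. The probes used differed by 0.19, 0.14 and 0.43. Ahsp, the chaperone of alpha haemoglobin, read 11.18, 10.17, 10.62 and 11.26 in DRG, 8.41, 5.99, 7.90 and 6.31 in nerve and 9.30, 8.08, 7.79 and 8.57 in cord. Slc4a1, the anion exchanger of red cells, was 7.44-fold above nerve and 3.59-fold above cord, and both genes lost the call against cord within slide 1 alone. Alas2, the erythroid enzyme of haem synthesis, read 10.90, 10.83, 12.04 and 12.93 in DRG and was 10.8-fold above nerve, a call lost within slide 1 alone (adjusted p = 0.148), as were those of Hba-a1 and of Hbb and Hbb-b1, further haemoglobin genes. Hba-a1 read 18.35, 18.13, 18.26 and 18.03 in DRG and 18.13, 17.96, 17.79 and 18.13 in cord, while in nerve it read 17.61, 14.66, 17.54 and 15.05, both injected sides above both control sides. Without nerve replicate 4 its difference from nerve lost the call (adjusted p = 0.0602). Bglap, the osteocalcin gene of bone, was 16-fold above nerve and 8.01-fold above cord, at 8.16, 6.58, 7.97 and 6.89 in DRG, and Acan and Dmp1, of cartilage and bone, were well above background on no DRG array.

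**Figure D4:**
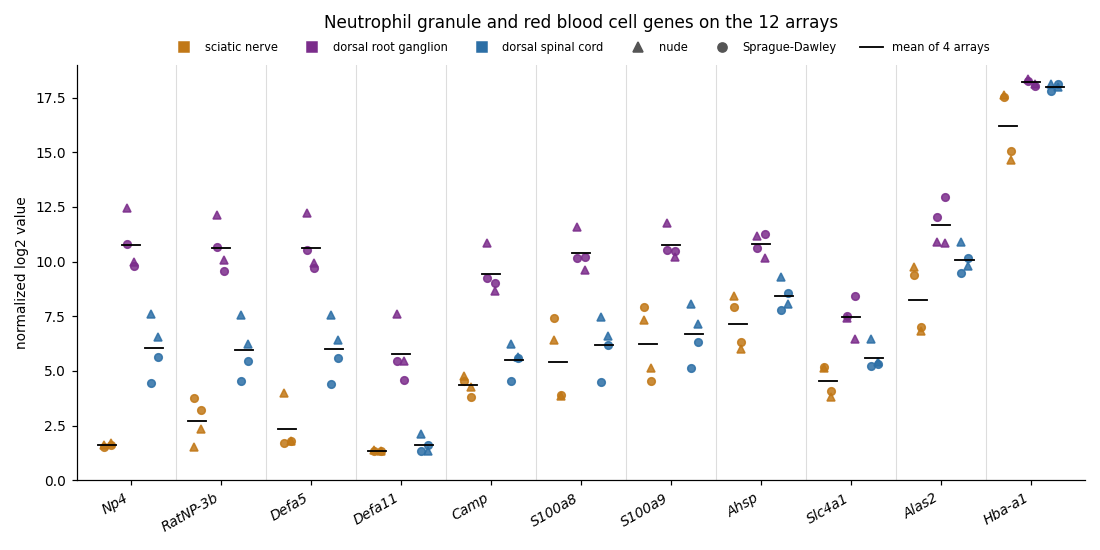
Normalized log2 value of 7 neutrophil granule genes and 4 red blood cell genes on the 12 arrays, by tissue, with triangles for nude and circles for Sprague-Dawley rats and a bar at the mean of 4 arrays. Np4 lies between 9.79 and 12.43 in DRG and between 4.47 and 7.62 in cord, with no nerve array well above background, and its highest array is DRG replicate 1.

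Fewer genes were lower in the ganglion than in both tissues, and their levels in DRG were often near background. Of the 157, 50 were well above background on all 4 DRG arrays and 14 on none, 28 were at least 4-fold lower and 3 at least 16-fold lower in both comparisons. Cxcl14, a chemokine, read 6.04, 4.60, 7.16 and 5.55 in DRG, 11.28, 10.62, 11.29 and 10.92 in nerve and 12.39, 12.61, 12.83 and 12.99 in cord, 36.5-fold and 117-fold lower. Slitrk6, a synaptic adhesion protein, was well above background on no DRG array, and nerve exceeded DRG by at least 11.1-fold and cord by at least 39.1-fold.

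The others were an assorted group. Galnt16, which starts mucin-type glycosylation, read 5.97, 6.28, 6.78 and 6.19 in DRG and was 14.6-fold and 19-fold below nerve and cord. Enc1, an actin-binding kelch protein, read 6.40, 5.88, 6.06 and 5.92 in DRG, 9.01, 8.39, 9.89 and 9.46 in nerve and 9.39, 9.04, 9.06 and 8.56 in cord. Arg1, arginase of the urea cycle and of some macrophages, read 4.98, 3.85, 4.68 and 3.65 in DRG, 10.13, 7.89, 9.16 and 7.91 in nerve and 8.13, 7.96, 7.96 and 7.70 in cord. Slc7a10, an amino acid transporter of astrocytes, Fam83d, a spindle protein, and Mall, a membrane proteolipid, were each well above background on 1 or 2 DRG arrays and on all 8 others. Acvr1c, an activin-type receptor, had nerve values of 1.72, 7.58, 5.06 and 7.30, and its call against nerve (adjusted p = 0.027) ended without DRG replicate 2, 3 or 4 or nerve replicate 2 or 4 (adjusted p from 0.0507 to 0.0797).

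The 4 DRG arrays were most unlike each other in a few genes that followed the rat type. Among genes well above background on all 4, the 5 with the largest standard deviation were Reg3a, Lefty2, Nppb, Reg3b and Slc7a3l1, while the median over all tested genes was 0.21. Reg3a, a secreted lectin of the regenerating islet-derived family, read 9.43, 9.60, 5.61 and 5.28, so both nude arrays were 4.07 log2 units above the Sprague-Dawley arrays on average. In nerve it read 3.23, 3.46, 2.90 and 3.30 and in cord 3.08, 2.36, 3.25 and 3.66. The difference of DRG from cord was larger in nude than in Sprague-Dawley rats by 4.81 log2 units (limma interaction, adjusted p = 0.0185), the 1 gene of 10925 to pass that test against cord, while none passed against nerve. Reg3b, of the same family and known to rise in injured sensory neurons, read 8.33, 8.06, 6.18 and 4.56. Its call against cord was lost within slide 2 alone, where the difference was 1.32. Reg1a, Reg3g and Reg4 were well above background on no DRG array.

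Nppb, the natriuretic peptide that marks itch neurons, read 9.34, 9.56, 6.02 and 5.96 in DRG, again with both nude arrays above both Sprague-Dawley arrays. In nerve it read 7.32, 4.33, 6.75 and 4.00, higher on both injected sides, and its difference from nerve did not pass the test (adjusted p = 0.0653), while against cord it was at least 43.9-fold higher. Lefty2, a secreted nodal inhibitor, read 15.38, 14.10, 10.32 and 12.83 and Slc7a3l1, of the cationic amino acid transporters, 10.60, 9.61, 6.63 and 8.29, both lowest on DRG replicate 3. The call of Lefty2 against nerve (adjusted p = 0.0259) was lost without DRG replicate 1, 2 or 4 or nerve replicate 2 or 4 (adjusted p from 0.0546 to 0.076). For 53.1% of all tested genes and 55.3% of the 235 higher in both, the 2 nude DRG arrays did not overlap the 2 Sprague-Dawley arrays, so such separation was common. Strain, day and slide cannot be told apart in it.

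**Figure D5:**
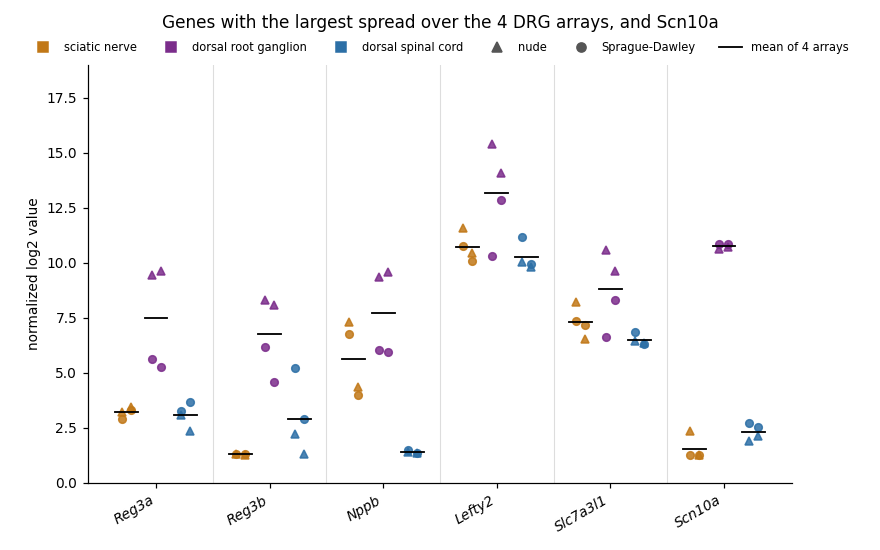
Normalized log2 value of the 5 genes with the largest standard deviation over the 4 DRG arrays, and of Scn10a for comparison, by tissue, with triangles for nude and circles for Sprague-Dawley rats and a bar at the mean of 4 arrays. Reg3a read 9.43 and 9.60 on the nude DRG arrays and 5.61 and 5.28 on the Sprague-Dawley ones, while Scn10a stays between 10.62 and 10.87.

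Genes that sensory neurons raise after axon injury were measured as a last list, since the left ganglia lay on the side of the injected nerve. The labels do not give the spinal level of the ganglia. Of 12 tested, 3 were higher than nerve and none lower, and 3 were higher than cord and 2 lower. Over all genes tested, 10.3% were higher and 9.20% lower than nerve, and 13.5% higher and 17.7% lower than cord. The counts of so short a list were not far from those shares. Npy, a peptide induced in large injured neurons, was 29.8-fold above nerve and differed from cord by 0.57 (adjusted p = 0.224). Atf3, a transcription factor of injured neurons, read 8.50, 7.67, 8.91 and 7.85 in DRG, the left array being the higher within each rat type. Gal, which encodes galanin, read 11.71, 10.17, 11.39 and 9.50, with the left array again higher in both rat types, by 1.55 and 1.89 log2 units. The differences between sides were not tested. Stmn4 and Nts were 48.5-fold and 42.2-fold below cord.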

How the data were processed

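RNA of DRG, sciatic nerve and dorsal spinal cord had been labelled with Cy3 and hybridized to rat 60-mer one-colour arrays. The authors extracted spot intensity with Agilent Feature Extraction (10.5 per the labels, 10.7.3.1 per the file headers), and the deposited matrix holds log2 values. Its 12 columns had the same distribution, their sorted values differing by at most 0.00153, so it was quantile normalized, although the methods name a median normalization. Each column ranked its probes exactly as its own scanner file did (Spearman's rho = 1). The scanner files also gave the other deposited column used, the flag for spots well above background.

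Of 30367 probes, 18006 were named through RefSeq accessions, giving 15159 genes, each read from its brightest probe. Probes well above background on all 4 arrays of at least 1 tissue, 20204 in number, were fitted with limma 3.58.1 in R 4.3.3 on all 12 arrays, with tissue and rat type as terms and 8 residual degrees of freedom. P-values were adjusted by the Benjamini-Hochberg method over all 20204. In simulated data, 82 of 100 probes changed by 1.5 log2 units and 99 of 100 changed by 3 were called higher in both comparisons, with no other probe called. The simulation drew independent normal noise with each probe's residual spread. It held no other tissue difference and no slide, rat type or shared-animal effect. It therefore cannot show how often the real arrays give false calls. The number of arrays limits the precision.

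Genes were named by rule: the 3 defining markers, the 20 highest and 10 lowest in both comparisons, up to 4 genes of each of 21 lists, the 10 brightest and the 5 most variable. A further 24 genes were named, and 6 lists drawn up, after their values were seen. The members and lists were chosen with earlier results of these data known. List genes without a named probe were not analysed here, and a few genes that the rule names are not reported here.

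Alternatives were the scanner signals with 75th percentile or quantile scaling, normexp correction with an offset of 50, other filters on dim probes, models with slide as a block or without rat type, single slides or rat types, averaged arrays, duplicateCorrelation, the methods' t-test, the mean over probes, a 3-fold limit, and each array left out.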

Additional observations from a re-analysis of the deposited data

Results flagged for a closer look

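Single arrays stood apart from the other 3 of their tissue in 8 of 300 groups of 4 values tested with Dixon's criterion, over named genes well above background on all 4 arrays, which is 2.67% where chance gives about 1 in 20. In DRG, Ppef1 was higher on replicate 4 (6.44, the next 6.08, gap over range 0.834), Drgx on replicate 3 (8.43, the next 8.09, gap over range 0.933) and F2rl2 on replicate 4 (6.54, the next 5.86, gap over range 0.899). In nerve, Slc32a1 was higher on replicate 1 (7.65, the next 7.19, gap over range 0.925) and Mag was lower on replicate 2 (9.44, the next 10.10, gap over range 0.834). In cord, Cd14 was lower on replicate 3 (5.50, the next 6.08, gap over range 0.939), Slc4a1 was higher on replicate 1 (6.45, the next 5.39, gap over range 0.883) and Lefty2 was higher on replicate 3 (11.17, the next 10.04, gap over range 0.843).

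The excess of DRG over cord for Reg3a was 4.808 log2 units larger in nude than in Sprague-Dawley rats (limma interaction, adjusted p = 0.0185). Strain, day and slide cannot be told apart in that difference.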

How the results depend on the processing

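Across 7017 refits of 270 differences (135 named genes in both comparisons), no called difference changed direction, 149 of the 201 called kept their call throughout and 52 lost it somewhere. Among differences that were not called, 85 refits changed sign. A 3-fold limit left 137 genes higher and 48 lower than both tissues, 735 higher and 448 lower than nerve, and 849 higher and 1076 lower than cord. Restricting the test to probes well above background on all 12 arrays, which removes genes silent in one tissue by construction, left 119 higher and 50 lower than both, 522 higher and 602 lower than nerve, 913 lower than cord, 3 sensory neuron markers and 2 neutrophil granule genes higher than both. Normexp background correction left 133 and 20 for both, 604 and 440 against nerve, and 728 and 918 against cord, and the cause was not tested. With scanner signals scaled to the 75th percentile, 86 genes were lower than both, and the higher ones made up 76.04% of those called in both, beside 59.95% in the deposited matrix and 86.93% after normexp. Leaving out each array in turn gave 220 to 249 genes higher and 135 to 182 lower than both. The methods' t-test called 230 and 143 genes at an unadjusted p under 0.05, and 202 and 106 after Benjamini-Hochberg adjustment. Probes near background carry bounds only, so the size of the largest differences is limited by the dim tissue.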

Other observations

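Sympathetic neuron genes, a list drawn up after values were seen, did not set the ganglion apart: of 5 measured, 2 were bright enough to test, none was higher than both tissues, and 3 were well above background on no DRG array. Of 6 lymphoid precursor genes measured, 1 was tested and was higher than cord and not called against nerve. Of 4 melanocyte genes measured, 2 were tested and 1, Tyrp1, was higher than both. Of 7 bone and cartilage genes, 4 were tested and 1, Bglap, was higher than both.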
